A study of Mus musculus with 9 samples.

Results

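Chromatin regulators are the 44 genes listed here from 4 families and a mixed group: 9 Polycomb genes, 11 histone deacetylase (HDAC) and sirtuin genes, 9 genes of the BAF chromatin remodelling complex, 7 genes of DNA methylation and 8 other regulators. They were chosen by name, and all 44 were measured among the 24890 genes tested. Their messenger RNA was read in sorted brain cells of mice aged 6 to 8 weeks on 9 single-colour Agilent arrays, 3 in each of 3 groups. One group held Sox2-GFP cells from the SVZ (subventricular zone), the stem cell region beside the lateral ventricle, and the other two held hippocampal cells, sorted for Sox2-GFP or for DCX-DsRed. The promoter of Sox2, which encodes a stem cell transcription factor, drives green fluorescent protein in the Sox2-GFP mice, and the promoter of Dcx, which newborn neurons use, drives DsRed in the DCX-DsRed mice. Tissue of 10 dissections was pooled for each experiment, and the RNA of 1000 sorted cells was amplified for each array. No other allele or treatment is named in the labels. The labels do not say whether the arrays of a group came from separate pools, and the spread that p-values are set against may therefore be technical. The series title concerns IGF2 in adult hippocampal neurogenesis, and the design sets the 2 reporters and the 2 regions against each other.

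Polycomb proteins keep genes silent. Polycomb repressive complex 2 methylates a lysine of histone H3 through the enzymes Ezh1 and Ezh2 with their partners Eed and Suz12, and Polycomb repressive complex 1 ubiquitinates histone H2A through Ring1 and Rnf2 with partners such as Bmi1 and the Cbx proteins, which bind the methylated lysine. Histone deacetylases and the sirtuin Sirt1 remove acetyl groups, which the acetyltransferases Ep300, Crebbp and Kat2b add. BAF moves nucleosomes with the energy of ATP. The Dnmt enzymes methylate DNA at CpG sites, and the Tet enzymes oxidise that mark. In the adult brain several of these genes are known to act in the renewal of neural stem cells or in the maturation of neurons.

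Of the 44 genes, 38 had an entry in RefSeq's promoter table (GRCm38.p6), with 250 bases before and 50 after the start of transcription. Several genes had more than 1 start, which gave 48 windows. Arrays read no promoter, so these windows describe the genes and carry no measurement. The 3 windows below belong to the members with the smallest p in any comparison: Hdac11, Hdac8 and Eed. Each is printed on the strand of its gene, with CpG sites, the bases that DNA methylation acts on, in capitals. The window of Hdac11 lies at chr6:91156565-91156864 on the plus strand, that of Hdac8 at chrX:102505109-102505408 on the minus strand and that of Eed at chr7:89980927-89981226 on the minus strand.
Hdac11: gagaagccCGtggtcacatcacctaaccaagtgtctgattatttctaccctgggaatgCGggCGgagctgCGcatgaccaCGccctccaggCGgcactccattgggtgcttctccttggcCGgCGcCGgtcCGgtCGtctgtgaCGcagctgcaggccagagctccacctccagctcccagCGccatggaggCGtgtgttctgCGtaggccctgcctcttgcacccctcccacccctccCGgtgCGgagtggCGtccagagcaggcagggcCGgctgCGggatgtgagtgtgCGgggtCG
Hdac8: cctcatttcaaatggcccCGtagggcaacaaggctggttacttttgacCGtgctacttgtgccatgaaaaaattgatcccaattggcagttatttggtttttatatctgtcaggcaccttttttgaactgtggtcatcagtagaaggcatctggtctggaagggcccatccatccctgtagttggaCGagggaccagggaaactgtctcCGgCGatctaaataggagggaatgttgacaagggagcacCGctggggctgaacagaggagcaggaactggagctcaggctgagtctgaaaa
Eed: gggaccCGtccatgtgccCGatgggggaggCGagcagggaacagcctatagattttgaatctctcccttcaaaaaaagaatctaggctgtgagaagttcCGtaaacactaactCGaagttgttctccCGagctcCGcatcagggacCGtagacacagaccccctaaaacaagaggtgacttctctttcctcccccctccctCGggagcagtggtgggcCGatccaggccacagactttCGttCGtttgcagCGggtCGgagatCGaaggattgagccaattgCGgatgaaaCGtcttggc

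The Hdac11 window holds 22 CpG sites, the Eed window 17 and the Hdac8 window 6. Over the 48 windows of members the count ran between 0 (1 of the 2 Hdac9 windows) and 57 (Tet2), with a median of 29.5, against a median of 7 over all 32851 windows of the table. At least 10 CpG sites were found in 40 of the 48 member windows (83.3%) and in 43.5% of all windows. The letters TTTGGCGC or TTTCCCGC, forms of the site of E2F cell cycle factors, were searched on both strands and stood in 5 member windows (10.4%), those of Ezh2, Suz12, Dnmt1, Smarcd1 and Arid1a, against 1.6% of all windows. Among windows with at least 10 CpG sites, the shares were 12.5% for members and 3.1% for all. The letters ACAAAG, the core of the site that Sox proteins bind, stood on either strand in 6 member windows (12.5%), among them windows of Ezh2 and Kat2b, against 18.7% of all windows. With at least 10 CpG sites, these shares were 10.0% for members and 11.8% for all. None of these letters stood in the windows of Hdac11, Hdac8 or Eed. Matches were counted whether or not they overlapped another motif, and they describe the letters only.

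**Figure D1:**
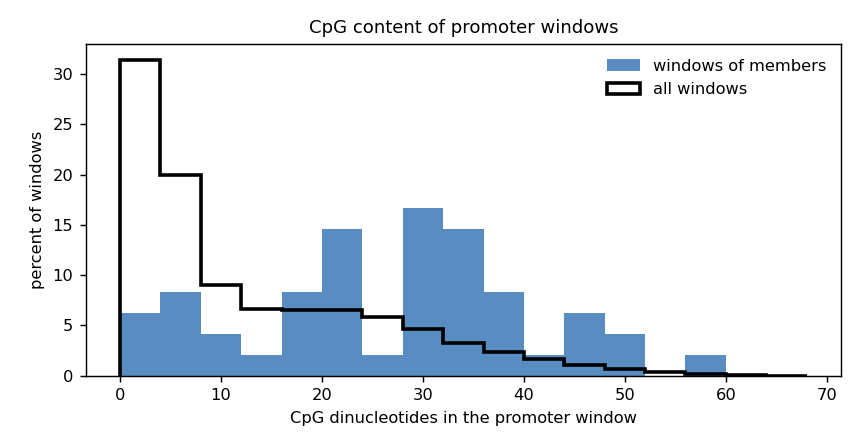
CpG dinucleotides in the promoter windows (x axis) against the percent of windows (y axis), for the 48 windows of members (blue) and all 32851 windows (black outline). The members have a median of 29.5 CpG sites and all windows a median of 7.

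Values are log2 signals set against the 75th percentile of their array, so that 0 is that percentile and each log2 unit is a doubling. Between 80.2% and 88.3% of probes were well above background on each array, and all 44 members passed the filter on dim probes. Of the members, 41 were well above background on all 9 arrays, and Hdac5, Dnmt3b and Kdm1a were not. Hippocampus Sox2-GFP replicate C stood apart: its mean correlation with its group was 0.80, against 0.83 to 0.89 for the other arrays, and 13 of the 44 members had their lowest value there. The sorts did not follow their reporters' own mRNAs: Sox2 read 0.96, 0.94 and -0.92 on the hippocampus Sox2-GFP arrays and 1.33, 1.74 and 1.72 on the hippocampus DCX-DsRed arrays, and the Dcx values of both groups overlapped. Markers of other cells moved with the groups too. The 10 oligodendrocyte genes had a summed level (log2) of 4.51 to 6.38 in SVZ Sox2-GFP, 1.15 to 5.36 in hippocampus Sox2-GFP and 8.05 to 8.39 in hippocampus DCX-DsRed cells. The 6 measured genes of choroid plexus and ependyma had 0.73 to 1.40 in SVZ Sox2-GFP, 5.52 to 7.07 in hippocampus Sox2-GFP and 0.18 to 0.70 in hippocampus DCX-DsRed cells. Hippocampus Sox2-GFP replicate C stood apart in these sums too. For the oligodendrocyte list it had 1.15, against 5.15 and 5.36 on replicates A and B. For choroid plexus and ependyma it had 7.07, against 5.92 and 5.52. For 8 astrocyte genes it had 3.19, against 5.74 and 6.04. The part of these cells in the member values of that array was not tested. In bulk samples, fewer cells of a type and less RNA per cell cannot be told apart.

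Of the 44 chromatin regulators 43 did not pass the test in any comparison, and 1 did: Hdac11 fell in SVZ Sox2-GFP cells relative to hippocampus DCX-DsRed cells. With limma and Benjamini-Hochberg adjustment over all genes, 0 of 44 passed between hippocampus Sox2-GFP and hippocampus DCX-DsRed cells, where 3.17% of all genes did. An unadjusted p under 0.05 was found there for 6 of the 44 and for 4211 of all 24890 genes. Between SVZ and hippocampus Sox2-GFP cells 0 of 44 passed, against 0.398% of all genes. In this comparison 7 of the 44 and 2690 of all 24890 genes had an unadjusted p under 0.05. Between SVZ Sox2-GFP and hippocampus DCX-DsRed cells 1 of 44 passed (2.27%), against 1.55% of all genes. This last comparison changes region and reporter together, which cannot be told apart, and all 3 comparisons share arrays.

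Genes whose groups do not overlap make a looser count. In hippocampus Sox2-GFP against hippocampus DCX-DsRed cells 8 members did not overlap (18.2%, 1 higher and 7 lower), against 24.7% of all genes, and the median difference of the 44 was -0.16 log2, beside -0.08 over all genes. In SVZ against hippocampus Sox2-GFP cells 10 did not (22.7%, 7 higher and 3 lower), against 16.9% of all genes, with a median of 0.34 beside 0.07. In SVZ Sox2-GFP against hippocampus DCX-DsRed cells 11 did not (25%, 7 higher and 4 lower), against 21% of all genes, with a median of 0.02 beside -0.03.

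**Figure D2:**
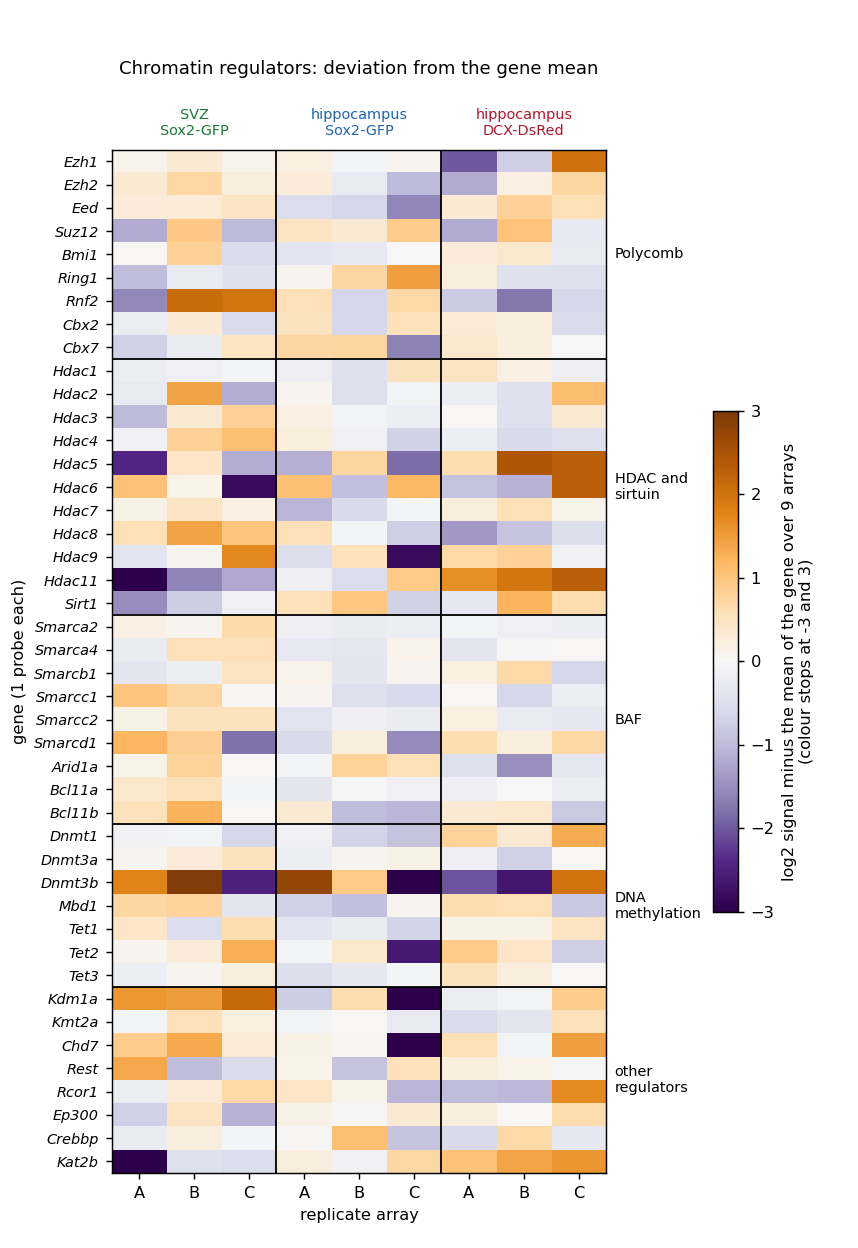
Deviation of each of the 44 chromatin regulators (rows, by family) from its own mean over 9 arrays, in log2 units (colour), for the arrays of SVZ Sox2-GFP, hippocampus Sox2-GFP and hippocampus DCX-DsRed cells (columns A to C). Hdac11 is low on the SVZ arrays and high on the DCX-DsRed arrays, and replicate C of hippocampus Sox2-GFP holds the lowest value of 13 members.

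Among the deacetylases, Hdac11, the class IV enzyme that in mouse brain is known from oligodendrocytes and neurons, was the member that changed. It read -4.86, -3.17 and -2.78 on the SVZ Sox2-GFP arrays, -1.70, -2.08 and -0.64 on the hippocampus Sox2-GFP arrays and 0.11, 0.41 and 0.73 on the hippocampus DCX-DsRed arrays. None of the 3 groups overlapped another, with the SVZ arrays lowest and the DCX-DsRed arrays highest. The difference of SVZ Sox2-GFP minus hippocampus DCX-DsRed cells was -4.02 log2 (SE 0.607, 95% interval -5.41 to -2.63, limma adjusted p = 0.0217), a factor of 16.2. It was -4.41 with the slide as a block (adjusted p = 0.0122) and -3.70 among the arrays of slide 3. The call was lost without any 1 of the 3 hippocampus DCX-DsRed arrays (adjusted p = 0.0851, 0.0822 and 0.0776 without A, B and C) and without SVZ Sox2-GFP replicate B (adjusted p = 0.0521), with differences of -4.24 to -3.86. Hdac11 has 1 probe on the array, so no second probe bears on it.

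The steps on either side of hippocampus Sox2-GFP cells did not pass for Hdac11. Hippocampus Sox2-GFP minus hippocampus DCX-DsRed cells gave -1.89 (SE 0.607, limma adjusted p = 0.156), and SVZ minus hippocampus Sox2-GFP cells gave -2.13 (SE 0.607, limma adjusted p = 0.259), which with the slide as a block was -2.57 (adjusted p = 0.0429). With the slide in the fit, the hippocampus Sox2-GFP group rests on replicate C, the one array that shares a slide with other groups. The oligodendrocyte list moved with Hdac11 in part. All 10 of its genes were lower on each SVZ Sox2-GFP array than on each hippocampus DCX-DsRed array, 1 of them past the test, and the same held for the 10 on the hippocampus Sox2-GFP arrays, with 5 past the test. Between SVZ and hippocampus Sox2-GFP cells the list ran the other way from Hdac11, with 9 of 10 genes higher in the SVZ (median difference 1.84 log2, none past the test). Each of the 10 was well above background on at least 1 array of every group. The part of these cells in the Hdac11 result was not tested.

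**Figure D3:**
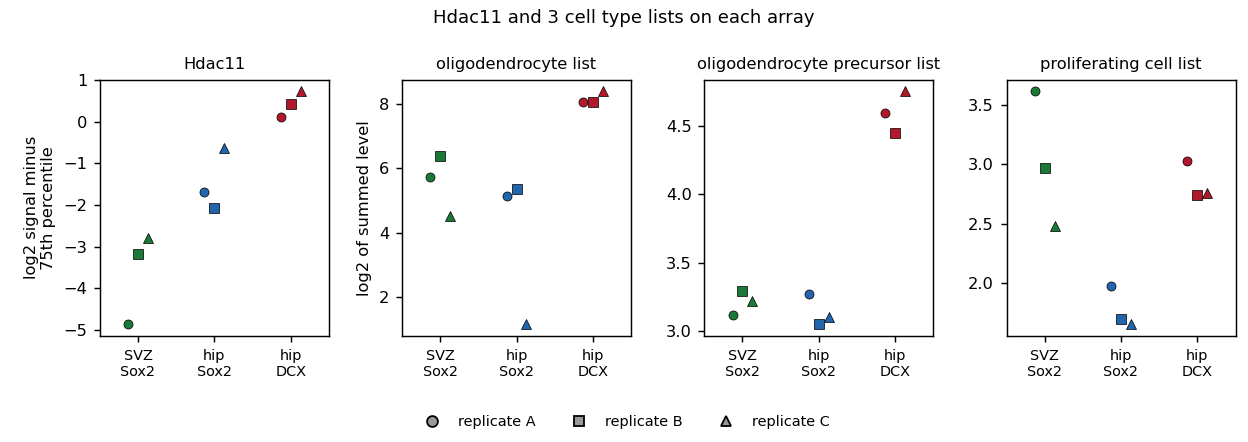
Hdac11 (log2 signal minus the 75th percentile) and the summed level (log2) of 3 cell type lists on each array, by group, with replicates A, B and C as circle, square and triangle. Hdac11 and the oligodendrocyte list are both highest in hippocampus DCX-DsRed cells, while the SVZ and hippocampus Sox2-GFP arrays overlap in that list and do not in Hdac11.

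Hdac8, a class I enzyme known to deacetylate cohesin, stood in the opposite order to Hdac11. It read 0.87, 1.70 and 1.27 in SVZ Sox2-GFP cells, 0.85, 0.21 and -0.45 in hippocampus Sox2-GFP cells and -1.13, -0.61 and -0.24 in hippocampus DCX-DsRed cells. The SVZ arrays lay above all DCX-DsRed arrays, and the hippocampus Sox2-GFP arrays overlapped the DCX-DsRed ones. The difference of SVZ Sox2-GFP minus hippocampus DCX-DsRed cells was 1.93 (SE 0.441, 95% interval 0.92 to 2.95) and did not pass (limma adjusted p = 0.085). Leaving out replicate C of hippocampus Sox2-GFP, an array of neither group that enters the estimate of spread, gave the same difference with an adjusted p of 0.0434. Some tests were chosen after their values were seen: that of Hdac8, and those given below for Hdac5, the second Hdac9 probe, Ring1, Dnmt3a, Tet1 and Tet3. The same holds for the tests of Kdm1a between the hippocampal groups and of Chd7 between the regions.

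The class II enzymes, several of which are known to shuttle between nucleus and cytoplasm, gave no call. Hdac7 read 1.97, 2.27 and 1.98 in SVZ Sox2-GFP, 0.75, 1.23 and 1.74 in hippocampus Sox2-GFP and 2.03, 2.40 and 1.94 in hippocampus DCX-DsRed cells, lowest in hippocampus Sox2-GFP cells with no overlap. Its interval for SVZ Sox2-GFP minus hippocampus DCX-DsRed cells lay inside 1 log2 unit on either side of 0. Both statements hold for the probe that stood for Hdac7. A second probe, well above background on all 9 arrays, read -2.22, -0.32 and -5.47 in hippocampus Sox2-GFP cells and overlapped both other groups. It gave -0.58 for SVZ Sox2-GFP minus hippocampus DCX-DsRed cells. Hdac5 was well above background on 1 SVZ Sox2-GFP, 1 hippocampus Sox2-GFP and 2 hippocampus DCX-DsRed arrays, and its differences rest on dim spots. They were -2.84 for SVZ Sox2-GFP minus hippocampus DCX-DsRed cells (limma adjusted p = 0.211) and -2.53 for hippocampus Sox2-GFP minus hippocampus DCX-DsRed cells (limma adjusted p = 0.213). Hdac1, the class I enzyme of several corepressor complexes, varied least of the family, by 0.97 log2 over all 9 arrays. Its interval for SVZ minus hippocampus Sox2-GFP cells was the only one of the 44 that lay inside 1 log2 unit on either side of 0. The other 6, Hdac2, Hdac3, Hdac4, Hdac6, Hdac9 and the NAD-dependent Sirt1, did not pass either. A second Hdac9 probe, well above background on all 9 arrays, read -2.99, -3.56 and -3.43 in hippocampus Sox2-GFP cells. In hippocampus DCX-DsRed cells it read -0.76, -1.61 and -1.72, with no overlap (difference -1.96, limma adjusted p over single probes = 0.0573). The probe that stood for Hdac9 gave -1.40, and dimmer probes gave -0.14 and -0.49. Over the 11 genes of the family, differences ran between -2.53 and 0.86 for hippocampus Sox2-GFP minus hippocampus DCX-DsRed cells (3 above 0), between -2.13 and 1.40 for SVZ minus hippocampus Sox2-GFP cells (6 above 0) and between -4.02 and 1.93 for SVZ Sox2-GFP minus hippocampus DCX-DsRed cells (3 above 0).

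**Figure D4:**
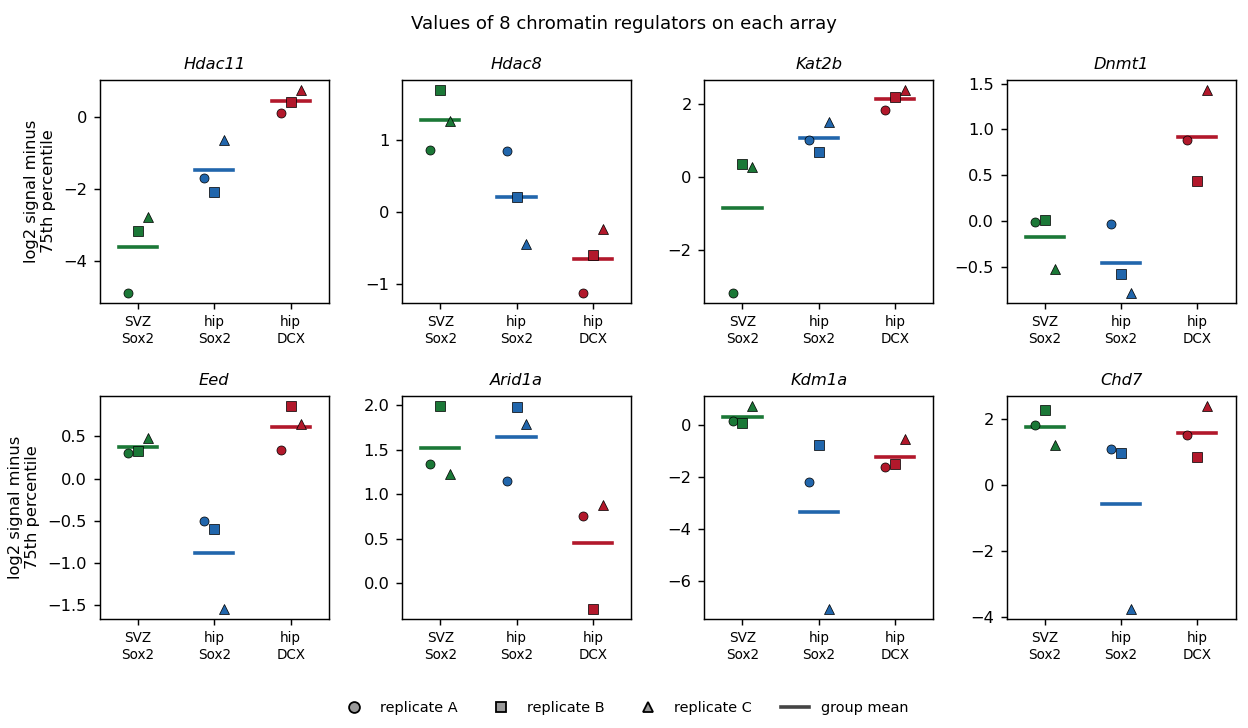
Values of 8 members (log2 signal minus the 75th percentile, y axes of different range) on each array of SVZ Sox2-GFP, hippocampus Sox2-GFP and hippocampus DCX-DsRed cells, with bars at the group means. Eed is lowest in hippocampus Sox2-GFP cells, Dnmt1 highest in hippocampus DCX-DsRed cells, and replicate C is the lowest hippocampus Sox2-GFP array for the Kdm1a and Chd7 probes shown.

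Of the Polycomb genes, Eed came nearest to the threshold. Eed, the subunit of Polycomb repressive complex 2 that reads the methylated histone, was 0.31, 0.33 and 0.48 in SVZ Sox2-GFP cells, -0.50, -0.60 and -1.54 in hippocampus Sox2-GFP cells and 0.34, 0.86 and 0.64 in hippocampus DCX-DsRed cells. The hippocampus Sox2-GFP arrays lay below all others, and the other groups overlapped. Hippocampus Sox2-GFP minus hippocampus DCX-DsRed cells gave -1.49 (SE 0.362, 95% interval -2.32 to -0.66, limma adjusted p = 0.0708), and -1.16 without replicate C (adjusted p = 0.108). Fitted with the slide as a block the difference was -2.20 (adjusted p = 0.0268), and -2.18 among the arrays of slide 3. SVZ minus hippocampus Sox2-GFP cells gave 1.25 (SE 0.362, limma adjusted p = 0.263), or 1.93 with the slide as a block (adjusted p = 0.0292). Marker lists set hippocampus Sox2-GFP cells apart too. The genes of choroid plexus and ependyma were highest there in sum, with 5 of 6 past the test against hippocampus DCX-DsRed and 2 of 6 against SVZ Sox2-GFP cells, the 7 microglial genes were highest in sum (2.21 to 2.38) and the 9 measured genes of proliferating cells lowest (1.66 to 1.98). Their part in the Eed values was not tested.

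Like Eed, its catalytic partners gave no call. Ezh2 read -0.30, 0.12 and -0.38 in SVZ Sox2-GFP, -0.34, -0.87 and -1.59 in hippocampus Sox2-GFP and -1.79, -0.44 and 0.13 in hippocampus DCX-DsRed cells, all overlapping. Ezh1 was even among the Sox2-GFP arrays (-1.34 to -0.95) but spread between -3.26 and 0.77 in hippocampus DCX-DsRed cells. Suz12, the scaffold of the complex, overlapped in all 3 comparisons on the probe that stood for it. A second probe, well above background on 8 arrays, read -2.48, -2.44 and -2.31 in SVZ Sox2-GFP cells, above all hippocampal arrays. SVZ minus hippocampus Sox2-GFP cells gave 1.04 on it and -0.99 on the first. SVZ Sox2-GFP minus hippocampus DCX-DsRed cells gave 2.91 and -0.26, and neither probe passed. In Polycomb repressive complex 1, the ubiquitin ligase Ring1 was -0.30, 0.41 and 0.22 in SVZ Sox2-GFP and 0.71, 1.39 and 2.12 in hippocampus Sox2-GFP cells. The difference was -1.30 (SE 0.439, limma adjusted p = 0.345). Its second probe gave -1.39, but there the groups overlapped, at -0.13, -2.14 and 1.57 in SVZ and 0.95, 0.99 and 1.53 in hippocampus Sox2-GFP cells. The other ligase, Rnf2, was -3.23, 0.42 and 0.31 in SVZ Sox2-GFP against -2.47, -3.43 and -2.29 in hippocampus DCX-DsRed cells (difference 1.90, SE 0.955, limma adjusted p = 0.439). Its high mean in the SVZ rests on replicates B and C. Bmi1, Cbx2 and Cbx7 did not pass in any comparison, and the interval of Bmi1 for SVZ Sox2-GFP minus hippocampus DCX-DsRed cells lay inside 1 log2 unit on either side of 0. Over the 9 Polycomb genes, differences ran between -1.49 and 1.27 for hippocampus Sox2-GFP minus hippocampus DCX-DsRed cells, between -1.30 and 1.25 for SVZ minus hippocampus Sox2-GFP cells and between -0.36 and 1.90 for SVZ Sox2-GFP minus hippocampus DCX-DsRed cells.

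The range of the BAF genes over the 9 arrays had a median of 1.34 log2, against 1.71 for DNA methylation, 2.39 for Polycomb, 2.54 for the mixed group and 2.75 for HDAC and sirtuin genes. The BAF ranges ran between 0.89 for the ATPase Smarca2 and 2.99 for the subunit Smarcd1 and overlapped those of the other families, and the difference between families was not tested. Smarca2 read 3.23, 3.13 and 3.71 in SVZ Sox2-GFP, 2.89, 2.82 and 2.88 in hippocampus Sox2-GFP and 2.99, 2.93 and 2.88 in hippocampus DCX-DsRed cells. All 6 hippocampal arrays thus lay between 2.82 and 2.99. For hippocampus Sox2-GFP minus hippocampus DCX-DsRed cells the intervals of 5 of the 9 lay inside 1 log2 unit on either side of 0: those of Smarca2, the other ATPase Smarca4, the core subunits Smarcc1 and Smarcc2, and Bcl11a, a zinc finger subunit. Kmt2a, a histone methyltransferase of the mixed group, was the only other member of which this held. These intervals come from 1 probe a gene. For the same difference, other probes well above background on all 9 arrays gave 1.11 and 0.68 for Smarca2 and 1.43 for Smarca4. Those of Smarcc1 and Smarcc2 gave -0.33 and -0.07, and dim probes of Bcl11a gave -1.42 and -2.97.

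In the SVZ 8 of 9 BAF genes lay above hippocampus Sox2-GFP cells, with a median difference of 0.49 log2, beside 0.07 over all genes, and none passed. The same 8 of 9 count was found without hippocampus Sox2-GFP replicate C, and it was 7 of 9 with the slide as a block. Smarcc1 had the smallest p of them, with 2.84, 2.61 and 1.88 in SVZ Sox2-GFP and 1.94, 1.40 and 1.27 in hippocampus Sox2-GFP cells (difference 0.91, SE 0.379, limma adjusted p = 0.441). Its second probe gave -0.43, the opposite sign. Other probes of Smarca2 (-1.86 and -0.58), Smarca4 (-0.30) and Smarcc2 (-0.13) were also below 0. Those of Bcl11a (1.28 and 2.86, dim) and Bcl11b (0.12) were above 0. Of 18 further BAF genes, 11 were higher in SVZ than in hippocampus Sox2-GFP cells, with a median of 0.31. Arid1a, the large subunit that defines canonical BAF, was ordered by reporter instead. It read 1.34, 1.99 and 1.22 in SVZ Sox2-GFP, 1.15, 1.98 and 1.79 in hippocampus Sox2-GFP and 0.75, -0.29 and 0.87 in hippocampus DCX-DsRed cells. The DCX-DsRed arrays lay below all Sox2-GFP arrays. Neither hippocampus Sox2-GFP minus hippocampus DCX-DsRed (1.19, SE 0.436, limma adjusted p = 0.211) nor SVZ Sox2-GFP minus hippocampus DCX-DsRed (1.07, SE 0.436, limma adjusted p = 0.324) passed. Smarcb1, Smarcd1 and Bcl11b did not pass in any comparison, and their largest differences in size were -0.15, -1.15 and 1.17.

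In DNA methylation, Dnmt1, the maintenance methyltransferase that copies the mark after replication, was higher on all hippocampus DCX-DsRed arrays. It read -0.01, 0.01 and -0.52 in SVZ Sox2-GFP, -0.03, -0.58 and -0.78 in hippocampus Sox2-GFP and 0.88, 0.44 and 1.43 in hippocampus DCX-DsRed cells. The Sox2-GFP groups overlapped each other. Hippocampus Sox2-GFP minus hippocampus DCX-DsRed cells gave -1.38 (SE 0.380, 95% interval -2.25 to -0.51, limma adjusted p = 0.103), and SVZ Sox2-GFP minus hippocampus DCX-DsRed cells -1.09 (SE 0.380, 95% interval -1.96 to -0.22, limma adjusted p = 0.239). Neither passed in any of the 19 alternatives. The 9 measured genes of proliferating cells, in which Dnmt1 is known to be high, had a summed level of 2.48 to 3.61 in SVZ Sox2-GFP, 1.66 to 1.98 in hippocampus Sox2-GFP and 2.74 to 3.03 in hippocampus DCX-DsRed cells, and none of them passed. Their part in the Dnmt1 values was not tested.

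The de novo enzymes gave no call. Dnmt3a read 2.98, 3.20 and 3.43 in SVZ Sox2-GFP, 2.74 to 3.08 in hippocampus Sox2-GFP and 2.78, 2.20 and 2.95 in hippocampus DCX-DsRed cells. Its SVZ arrays lay above all DCX-DsRed arrays (difference 0.56, SE 0.321, limma adjusted p = 0.514), and the other pairs of groups overlapped. Other probes of Dnmt3a gave 0.21 and -0.76 for SVZ Sox2-GFP minus hippocampus DCX-DsRed cells, and on these the 2 groups overlapped. Dnmt3b was well above background on 5 arrays and spread over 6.19 log2. The oxidising enzymes Tet1 and Tet3 did not overlap between hippocampus Sox2-GFP and hippocampus DCX-DsRed cells, with differences of -0.68 and -0.53 (limma adjusted p = 0.413 and 0.416). Both had intervals inside 1 log2 unit on either side of 0 for SVZ Sox2-GFP minus hippocampus DCX-DsRed cells. Tet2 ran between -2.71 and 1.21, with the lowest value on hippocampus Sox2-GFP replicate C. The 7 genes of this family were all higher in SVZ than in hippocampus Sox2-GFP cells (median 0.59, none past the test), and over all genes 13541 of 24890 were higher, with a median of 0.07. Without that replicate 6 of the 7 were higher, with a median of 0.38. Of 16 further genes of DNA methylation, 7 were higher in the SVZ, with a median of -0.16. The member of the family with the smallest p there was Mbd1, a protein that binds methylated CpG, with 1.08, 1.11 and -0.04 in SVZ and -0.37, -0.59 and 0.40 in hippocampus Sox2-GFP cells. These groups overlapped, and the difference of 0.91 (SE 0.539, limma adjusted p = 0.593) was -0.010 with the slide as a block.

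Among the other regulators, the size of 2 large differences depended on 1 array. Kdm1a, the histone demethylase of the CoREST complex, read 0.14, 0.06 and 0.71 in SVZ Sox2-GFP, -2.20, -0.78 and -7.09 in hippocampus Sox2-GFP and -1.62, -1.50 and -0.55 in hippocampus DCX-DsRed cells. The value of -7.09, on hippocampus Sox2-GFP replicate C, was not well above background. SVZ minus hippocampus Sox2-GFP cells gave 3.65 (SE 1.38, limma adjusted p = 0.401), and 1.79 without that array (adjusted p = 0.345). In the fit with the slide, which leaves that array to stand for its group, it was 7.60 (adjusted p = 0.00575), and the difference of hippocampus Sox2-GFP minus hippocampus DCX-DsRed cells was -6.28 (adjusted p = 0.00962) where the fit without the slide gave -2.13.

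Chd7, a remodelling ATPase, also had its lowest value on that array. It read 1.81, 2.28 and 1.23 in SVZ Sox2-GFP, 1.09, 0.97 and -3.74 in hippocampus Sox2-GFP and 1.52, 0.86 and 2.39 in hippocampus DCX-DsRed cells. Hippocampus Sox2-GFP minus hippocampus DCX-DsRed cells gave -2.15 (SE 1.20, limma adjusted p = 0.415), and -0.56 without replicate C (adjusted p = 0.675). Fitted with the slide as a block the difference was -5.71 (adjusted p = 0.0107). SVZ minus hippocampus Sox2-GFP cells gave 2.33 (limma adjusted p = 0.536), 0.74 without replicate C (adjusted p = 0.798) and 5.70 with the slide as a block (adjusted p = 0.009). A second probe of Chd7, well above background on all 9 arrays, gave -1.20 and 1.38 for these differences. Its hippocampus Sox2-GFP arrays, at -0.34, -0.70 and -1.84, lay below all 6 others.

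Kat2b, an acetyltransferase of the SAGA complex, followed the order of Hdac11. It read -3.17, 0.35 and 0.26 in SVZ Sox2-GFP, 1.01, 0.68 and 1.51 in hippocampus Sox2-GFP and 1.83, 2.18 and 2.37 in hippocampus DCX-DsRed cells, with no overlap between any of the groups. SVZ Sox2-GFP minus hippocampus DCX-DsRed cells gave -2.98 (SE 0.870, 95% interval -4.98 to -0.99, limma adjusted p = 0.166), and the second probe well above background gave -2.48. On that second probe the SVZ arrays lay below all hippocampal arrays, but the hippocampal groups overlapped. There hippocampus Sox2-GFP cells read -1.16, -0.61 and -0.49, and hippocampus DCX-DsRed cells -0.69, -0.32 and 0.64. Without SVZ Sox2-GFP replicate A, its lowest array, the difference of SVZ Sox2-GFP minus hippocampus DCX-DsRed cells on the first probe was -1.82. The coactivators Ep300 and Crebbp, the neuronal gene silencer Rest, its corepressor Rcor1 and Kmt2a did not pass in any comparison.

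**Figure D5:**
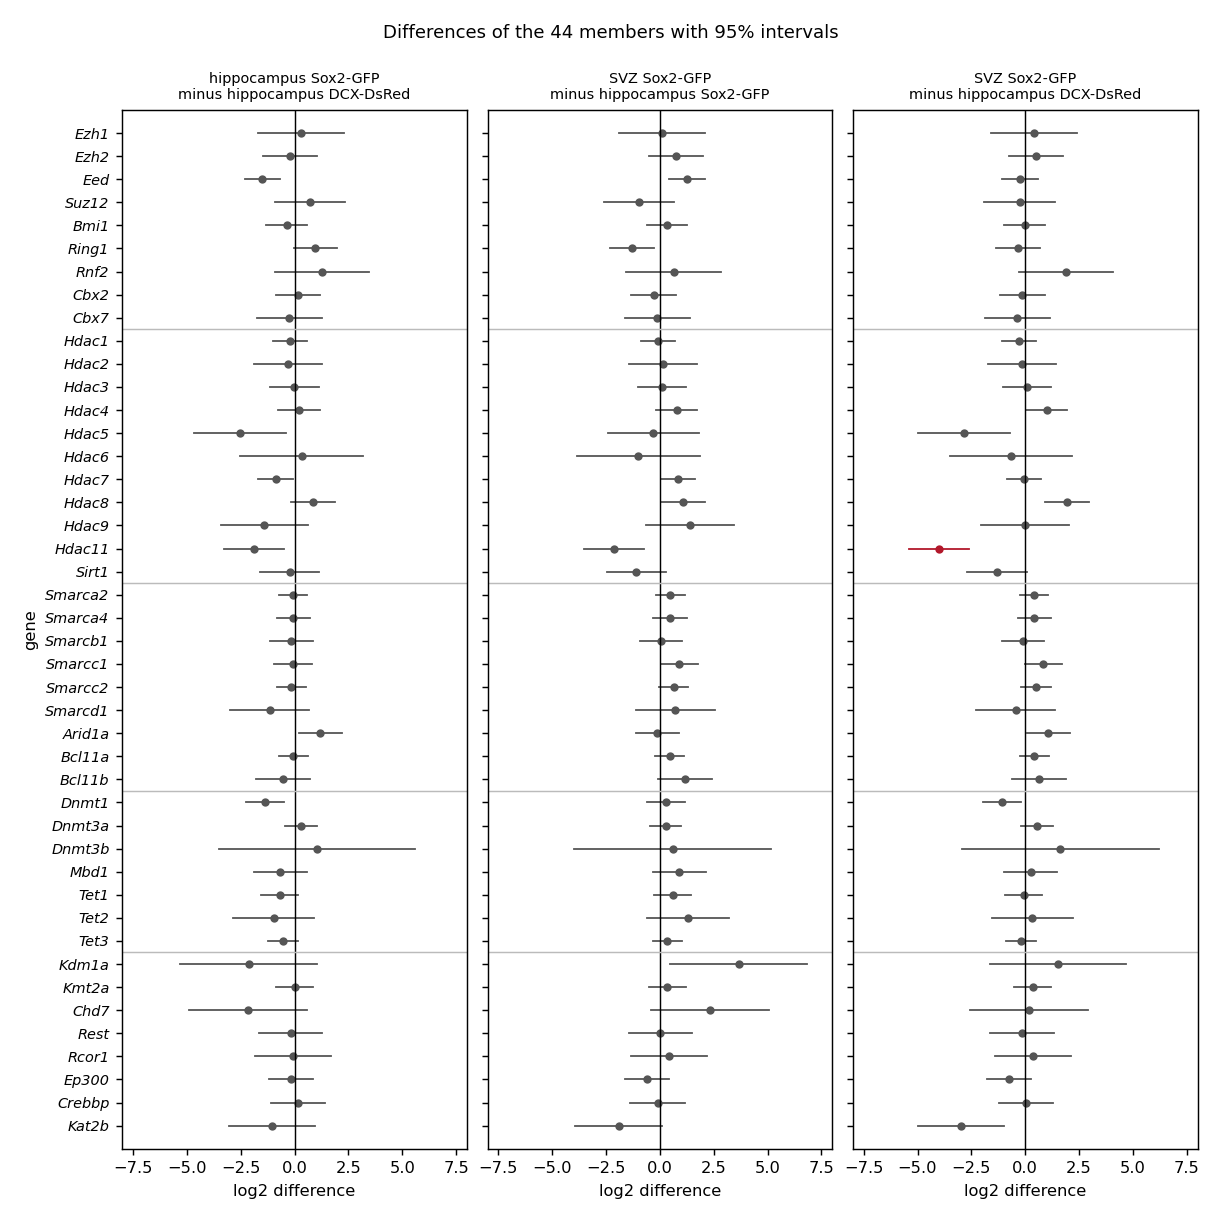
Differences (log2, x axis) of the 44 members with 95% intervals in the 3 comparisons, each named above its panel, from limma over 9 arrays. The 1 member past the test, Hdac11 in SVZ Sox2-GFP minus hippocampus DCX-DsRed cells, is red, and the intervals of most others cross 0.

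A wider list of 118 measured genes of the same pathways gave calls for 1 gene. Pcgf2, a ring finger partner in Polycomb repressive complex 1 and a relative of Bmi1, read 0.87, 1.17 and -0.01 in SVZ Sox2-GFP, 0.44, 0.89 and 2.08 in hippocampus Sox2-GFP and -2.69, -2.44 and -3.73 in hippocampus DCX-DsRed cells. It rose in hippocampus Sox2-GFP relative to hippocampus DCX-DsRed cells (4.09, SE 0.564, limma adjusted p = 0.0101) and in SVZ Sox2-GFP relative to the same DCX-DsRed arrays (3.63, SE 0.564, limma adjusted p = 0.0244). With the slide as a block these differences were 5.52 and 3.87 (adjusted p = 0.00993 and 0.0176). Between SVZ and hippocampus Sox2-GFP cells 0 of the 118 passed, and 8 had an unadjusted p under 0.05, as had 2690 of all 24890 genes. The share called was 0.847% in either comparison with hippocampus DCX-DsRed cells, below the shares of all genes given above. The oligodendrocyte list moved opposite to Pcgf2 in both, and its part was not tested.

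Within a group the members were about as variable as other genes, with a median pooled SD of 0.64 log2 against 0.70 over all genes. Several probes were present for 25 members. All probes of a member gave the same sign for 15 of these 25 in hippocampus Sox2-GFP against hippocampus DCX-DsRed cells, 14 in SVZ against hippocampus Sox2-GFP cells and 11 in SVZ Sox2-GFP against hippocampus DCX-DsRed cells. Over single probes, of which the members have 82, Hdac11 in the last of these comparisons was again the 1 call. An interval inside 1 log2 unit on either side of 0 was found for 6, 1 and 4 of the 44 in the same comparisons. For the other members it reached past a factor of 2 on at least 1 side.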

How the data were processed

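The deposited files hold 1 scanned array each. Per the file headers, Agilent Feature Extraction 9.5.1.1 made the processed intensity, with detrending and a surrogate for values under the noise, and with no normalization between arrays. The deposited files also gave raw mean and background intensities and flags. The submitters' processing notes name limma without a version. Groups and replicate letters came from the sample titles.

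Control and outlier-flagged spots were left out, spots of a probe were averaged, and 40710 of 41174 probes remained. From log2 of the processed signal the 75th percentile of its array was subtracted. Gene names came from the files' accessions through a RefSeq table (GRCm38.p6, names only), then from symbols or a synonym of 1 gene. The file of 1 array had 47 names altered by a spreadsheet, so names came from an intact file. A probe had to be well above background on 3 or more of 9 arrays, and the brightest stood for its gene. The fit used limma 3.58.1 (lmFit, eBayes; R 4.3.3) on all 9 arrays, 6 residual degrees of freedom, with a threshold of 0.05 after Benjamini-Hochberg adjustment over 24890 genes. Steps were tested on simulated data.

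The members, the wider list and the marker lists were chosen with earlier results of these data known. Tests are given for members past the threshold and, for a family with none, for its member with the smallest p. Further tests, named above, were chosen after their values were seen. The alternatives were normexp, quantile, another percentile set, other filters, the mean over probes, the slide or replicate letter as a block, only the 6 arrays compared, and each array left out. Tbl1xr1 and Pbrm1 of the wider list were not measured under those symbols.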

Additional observations from a re-analysis of the deposited data

How the results depend on the processing

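Hdac11 in SVZ Sox2-GFP minus hippocampus DCX-DsRed cells stayed below 0 in all 19 alternatives (-4.43 to -3.35, adjusted p 0.00484 to 0.0851) and passed in 15. The count of members past the test was 0 between hippocampus Sox2-GFP and hippocampus DCX-DsRed cells and became 2 with normexp (Eed, Hdac11), 1 with quantile normalization (Eed), 3 with the slide as a fixed block (Eed, Kdm1a, Chd7) and 1 with the slide as a random block (Eed). Between SVZ and hippocampus Sox2-GFP cells it was 0, and 4 with the slide as a fixed block (Eed, Hdac11, Kdm1a, Chd7). Between SVZ Sox2-GFP and hippocampus DCX-DsRed cells it was 1, 3 with the slide as a random block (Hdac8, Hdac11, Kat2b) and 0 to 2 with 1 array left out. Hdac8 had an adjusted p of 0.0434 to 0.263 over its alternatives. The 1 change of direction among the tested differences was Mbd1 in SVZ minus hippocampus Sox2-GFP cells, at -0.010 with the slide as a fixed block. The causes were not tested. With a replicate block the counts were 0, 0 and 1 in the 3 comparisons. Deviations of same-lettered arrays correlated at -0.044 to 0.115. Arrays of unlike letters were not compared, so these values cannot tell whether the letters pair the samples. The number of arrays, 3 a group, limits the precision.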
